A study of Arabidopsis thaliana with 3 samples.

Results

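The comparison described here sets seedlings of the knockout wrky6-1 against wild-type seedlings of Arabidopsis thaliana. The knockout is of WRKY6 (AT1G62300, chromosome 1), a transcription factor gene. It uses 2 of the 3 arrays in the series, 1 for wrky6-1 and 1 for wild type, chosen by their genotype labels. The third array, from the overexpressing line 35S:WRKY6-9, in which the strong viral 35S promoter drives WRKY6, is given only beside them. All seedlings were 7 days old and whole, and had been germinated on MS agar under constant light at 22 °C after 2 days in the cold. No chemical or nutrient treatment is given for any of them. The wild type is labelled as the Columbia ecotype, and the labels for wrky6-1 and 35S:WRKY6-9 name no ecotype. Each mutant or transgenic genotype is 1 line, and the number of seedlings pooled per array is not given in the sources used here.

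WRKY proteins are plant transcription factors with a zinc finger that bind W-box elements in promoters. WRKY6 is known from Arabidopsis for its part in leaf senescence and defence, and for repression of the phosphate exporter gene PHO1. The design asks which transcripts are higher or lower in seedlings when WRKY6 is lost. No genotype was replicated, so every ratio below compares 1 array with 1 array, without a replicate check or a test.

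Each probe set on the Affymetrix array gives 1 signal, a linear intensity with no unit. Signals below 45.5 were raised to that floor before ratios were taken, and a probe set was kept as measured when the higher of its 2 signals reached 174.6. This left 12222 of the 22746 Arabidopsis probe sets, or 53.7%. The dimmest probe set kept had a higher signal of 174.7, and the brightest one left out had 174.6. Where 1 of the 2 signals was under the floor, the fold is only a minimum and carries "at least". Median signals were 172.5 in wrky6-1, 169.4 in 35S:WRKY6-9 and 181.7 in wild type. The ratio of 3′ to 5′ actin control probe sets, which rises when RNA is degraded, was 1.84 in wrky6-1, 1.89 in 35S:WRKY6-9 and 1.97 in wild type by the later controls. By the earlier controls it was 9.16, 13.1 and 10.2 on the same arrays. The control probe set for 25S ribosomal RNA had a signal of 65.2 in wrky6-1, 152 in 35S:WRKY6-9 and 310 in wild type, and the part of ribosomal RNA carry-over in the results was not tested. Within these 2 arrays, different probe sets of the same gene disagreed with an SD of 0.23 for 1 probe set's log2 ratio, over 47 genes.

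Of the measured probe sets, 631 (5.16%) were higher by 2-fold or more in wrky6-1 than in wild type and 950 (7.77%) lower by as much, together 12.9%. At least 4-fold differences were found for 89 (0.728%) higher and 144 (1.18%) lower probe sets, and at least 8-fold differences for 18 (0.147%) and 25 (0.205%). The median log2 ratio over all measured probe sets was -0.01, with quartiles of -0.41 and 0.37. Among the higher probe sets, 222 (35.2%) had a wild-type signal below 174.6, and among the lower ones 356 (37.5%) had a wrky6-1 signal below it. A probe set kept through 1 array alone had to be brighter on that array, so counts over a gene list that rest on such members only describe them. This holds for every measured gene below with 1 of its 2 signals under 174.6. With both signals at or above that level, 409 of 10658 were higher and 594 lower. Measured probe sets with a low mean signal passed 2-fold more often, which the filter partly sets. The dimmest 25% began at a mean signal of 90.4, while the higher signal had to reach 174.6. The dimmest of them could thus be kept only with their other signal far lower. In the dimmest 25% by mean signal 7.10% were higher and 11.2% lower, while in the brightest 25% 4.65% were higher and 6.48% lower.

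**Figure D1:**
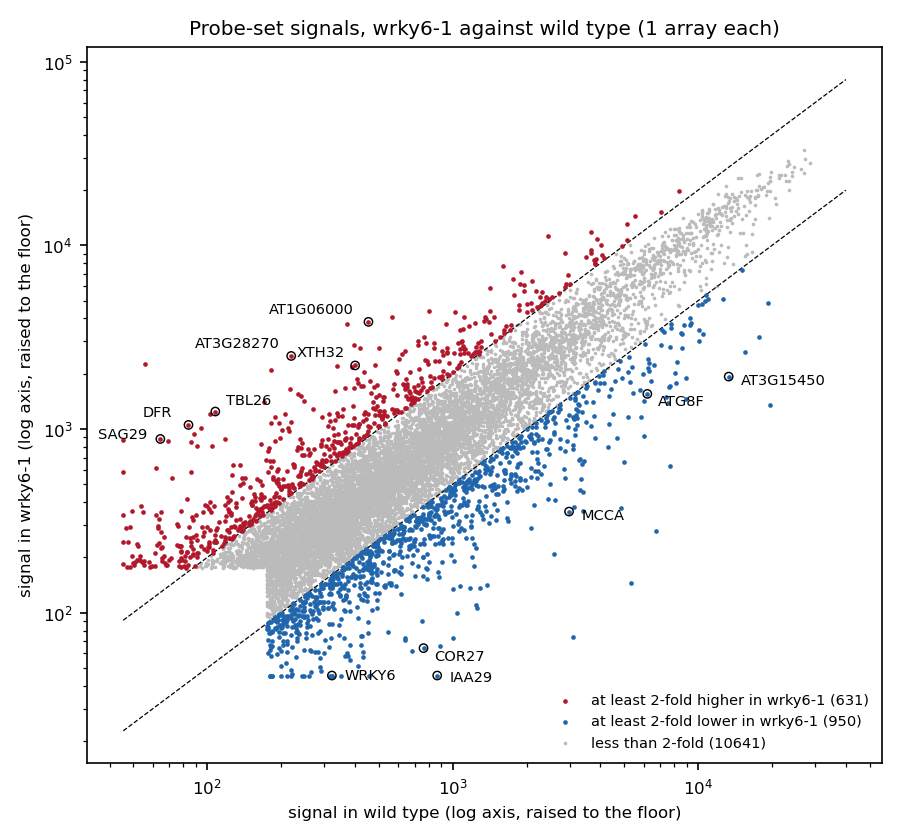
Signal of each measured probe set in wrky6-1 (vertical log axis) against wild type (horizontal log axis), 1 array each, with signals raised to the floor of 45.5 and dashed lines at 2-fold. Red points are the 631 probe sets at least 2-fold higher in wrky6-1, blue points the 950 at least 2-fold lower, and circled points are named genes.

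Only part of these differences can be put to a gene. The annotation used names 1 gene for 13513 probe sets, several genes for 503 and none for the other 8730, and those without a single gene are not named here. Taken gene by gene, with the brightest probe set standing for each, 6356 named genes were measured, of which 290 (4.56%) were higher in wrky6-1 and 514 (8.09%) lower. Most carry a locus code and no symbol. Of 5369 measured genes known here by locus code alone, 232 (4.32%) were higher and 439 (8.18%) lower. Of the 987 with a symbol, 58 (5.88%) were higher and 75 (7.60%) lower. Over the 5 nuclear chromosomes the share of measured genes that were higher ran between 3.89% and 5.43%, and the share that were lower between 7.68% and 8.96%.

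WRKY6 itself had a signal of 12.1 in wrky6-1, 9245 in 35S:WRKY6-9 and 322 in wild type, and was at least 7.08-fold lower in wrky6-1 than in wild type (log2 ratio -2.82). The direction matches the label, although the position of the probe set along the gene was not compared with that of the lesion. Of the 12 genes on each side of WRKY6 on chromosome 1, 7 had a named probe set and 3 were measured. AT1G62290, looked at for its position, had a signal of 1260 in wrky6-1, 201 in 35S:WRKY6-9 and 505 in wild type, and was 2.49-fold higher in wrky6-1. The log2 ratio was 0.44 for AT1G62250 and 0.005 for AT1G62330. So 1 of the 3 measured neighbours passed 2-fold, beside 12.9% of all measured probe sets in either direction.

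Genes of flavonoid and anthocyanin synthesis had the highest median of the lists with at least 3 measured members. Flavonoids are plant phenolics that include the flavonols, known as sunscreens, and the red to purple anthocyanins, both usually stored as sugar conjugates. The list has 28 genes, 9 with a probe set, and 7 of these were measured. All 7 passed 2-fold upwards in wrky6-1, and their median log2 ratio was 3.08, beside -0.01 over all measured probe sets, of which 5.16% passed 2-fold upwards. DFR, UF3GT, AT5MAT and AT4G14090 had wild-type signals so far below 174.6 that they could be kept only by being at least 2-fold higher in wrky6-1, and the other 3 reached that level on both arrays. The other 2, BAN and UGT78D3, did not reach the level for measurement. The 7 cover the late pigment branch and the enzymes that attach sugars and acyl groups. This list holds genes already known to differ between these arrays, so its count does not stand as independent evidence. The lists below were also chosen with earlier results of these data known, and the same limit holds for their counts.

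DFR, the reductase that commits flavonoids to anthocyanins, had a signal of 1053 in wrky6-1, 228 in 35S:WRKY6-9 and 83.9 in wild type, a 12.6-fold difference between wrky6-1 and wild type. UF3GT, an anthocyanin glycosyltransferase gene, had 864, 132 and 69.0 on the same arrays and was 12.5-fold higher in wrky6-1. AT5MAT, which encodes an anthocyanin malonyltransferase, had 340, 25.4 and 16.9 and was at least 7.48-fold higher. For these 3 genes the wild-type signal was dim or under the floor and the wrky6-1 signal stood clear of it. AT4G14090, named by locus code only, had 846 in wrky6-1, 69.1 in 35S:WRKY6-9 and 85.8 in wild type, a 9.86-fold difference.

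The remaining 3 genes, measured on both arrays, include enzymes of flavonol conjugation. UGT78D1, a flavonol rhamnosyltransferase, had a signal of 1657 in wrky6-1, 416 in 35S:WRKY6-9 and 218 in wild type, and was 7.61-fold higher in wrky6-1. UGT78D2, the glucosyltransferase that acts on flavonols and anthocyanidins at the same position, had 2054, 530 and 436 on the same arrays (log2 ratio 2.24). AT1G06000 had 3835 in wrky6-1, 502 in 35S:WRKY6-9 and 454 in wild type, 8.45-fold higher in wrky6-1. In all 7 genes the wrky6-1 array carried the highest of the 3 signals. CHIL, a chalcone isomerase-like protein that aids flavonoid synthesis, was picked after its value was seen and had 1603 in wrky6-1 and 332 in wild type, a log2 ratio of 2.27. HYH, the homologue of the light-signalling factor HY5, which is known to act on flavonoid genes, had 313 in wrky6-1 and 142 in wild type, a log2 ratio of 1.14.

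The wider phenylpropanoid and lignin list had 1 measured member of 17. HCT, the acyltransferase on the way to lignin monomers, had a signal of 4693 in wrky6-1 against 2274 in wild type, 2.06-fold higher. That ratio fell under 2-fold under quantile and lowess scaling. CCR2, a cinnamoyl-CoA reductase of lignin synthesis, was chosen after its value was seen and had a log2 ratio of 1.29.

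**Figure D2:**
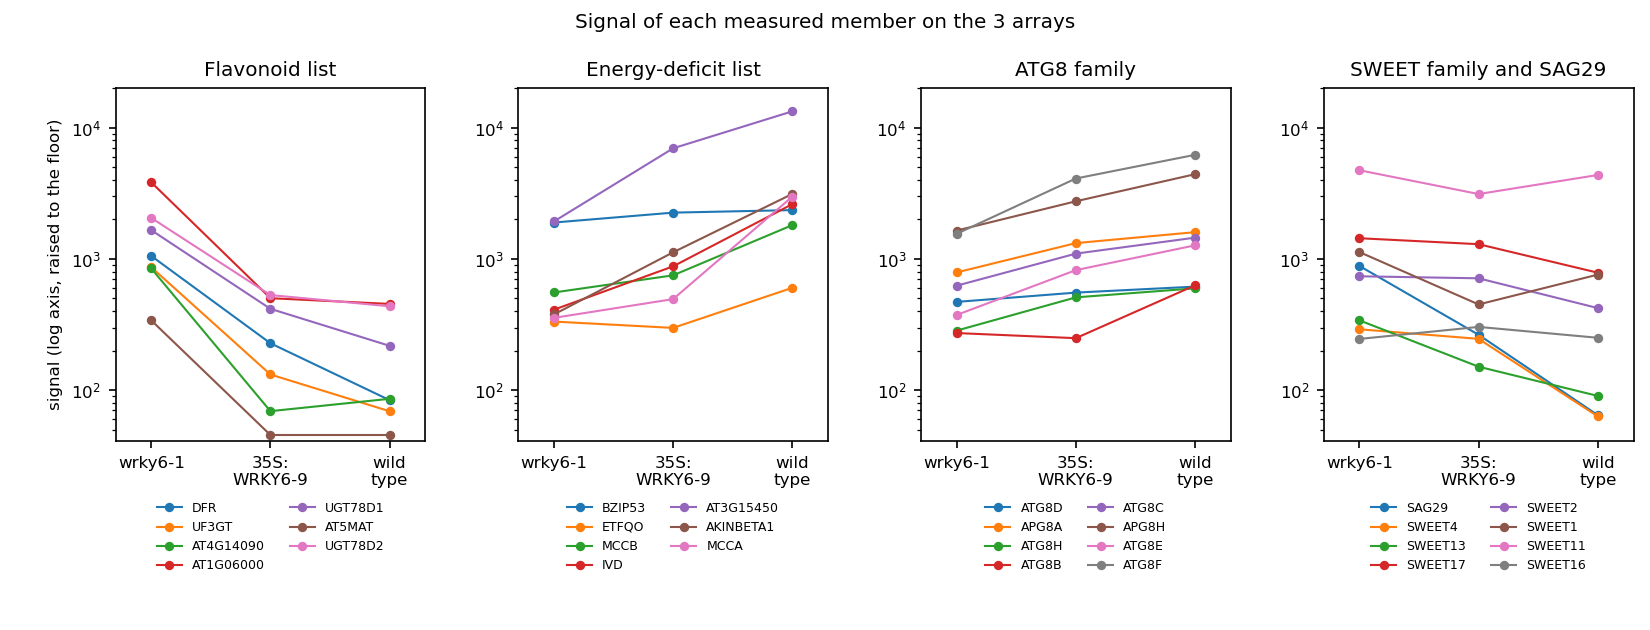
Signal (log axis, raised to the floor of 45.5) of each measured member of 4 gene groups on the wrky6-1, 35S:WRKY6-9 and wild-type arrays, 1 array each, 1 line per gene. Every flavonoid gene shown is brightest in wrky6-1, every gene of the energy-deficit list and of the ATG8 family is dimmer in wrky6-1 than in wild type, and SAG29, SWEET4 and SWEET13 are brighter in wrky6-1.

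Of the genes that mark shortage of sugar, 5 of the 7 measured were at least 2-fold lower in wrky6-1. The energy-deficit list holds genes known to be switched on in darkness or starvation through the kinase SnRK1, among them the enzymes that burn leucine and other branched-chain amino acids. These 7 are the measured part of 33 listed genes, all 7 reached 174.6 on both arrays, and none was at least 2-fold higher. The median log2 ratio was -2.67, and all 7 ratios lay below 0 here and under 3 other scalings of the arrays. The share of all measured probe sets at least 2-fold lower was 7.77%. The list was chosen with earlier results of these data known and the scalings use the same arrays, so neither gives independent evidence. MCCA and MCCB, the subunits of methylcrotonoyl-CoA carboxylase in leucine breakdown, both belonged to the 5. MCCA had a signal of 355 in wrky6-1, 494 in 35S:WRKY6-9 and 2980 in wild type, 8.38-fold lower in wrky6-1. MCCB had 555, 750 and 1809 on the same arrays (log2 ratio -1.71).

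IVD, isovaleryl-CoA dehydrogenase of the same route, had a signal of 410 in wrky6-1, 878 in 35S:WRKY6-9 and 2614 in wild type and was 6.37-fold lower. ETFQO, which passes the electrons from that step to ubiquinone, had 333, 298 and 602 and a log2 ratio of -0.85, short of 2-fold. AKINBETA1, a regulatory subunit of SnRK1 itself, had 378 in wrky6-1, 1123 in 35S:WRKY6-9 and 3126 in wild type, 8.28-fold lower. AT3G15450 had 1930, 6965 and 13324 on the same arrays and was 6.90-fold lower. BZIP53, a bZIP factor that acts with SnRK1 signalling, differed little, with a log2 ratio of -0.31. Of these, only ETFQO had a lower signal in 35S:WRKY6-9 than in wrky6-1.

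Autophagy genes lay on the same side. Autophagy delivers cell contents to the vacuole for breakdown, and the small ATG8 proteins coat the vesicles that carry them. Of 24 listed genes 11 were measured, 7 at least 2-fold lower in wrky6-1 and none higher by as much. Over all measured probe sets 7.77% were at least 2-fold lower. The list was chosen with earlier results of these data known, so its count is not independent evidence. The median log2 ratio of the 11 genes was -1.07 and all 11 ratios lay below 0. They stayed below 0 under the 3 other scalings, with the number at least 2-fold lower between 5 and 7. All 7 lower genes belong to the ATG8 family, of which 8 members were measured. ATG8F had a signal of 1554 in wrky6-1, 4100 in 35S:WRKY6-9 and 6212 in wild type (log2 ratio -1.999), and ATG8E had 374, 821 and 1269 (log2 ratio -1.76). APG8H, a further ATG8 gene, had 1645 in wrky6-1, 2749 in 35S:WRKY6-9 and 4421 in wild type, a log2 ratio of -1.43.

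The other 4 lower ATG8 genes, ATG8C, ATG8B, ATG8H and APG8A, had log2 ratios between -1.22 and -1.02. ATG8D, the eighth, had a log2 ratio of -0.39. ATG3, the enzyme that joins ATG8 to lipid, also had -0.39, and the remaining listed genes AT3G61960 and AT3G59950 had -0.16 and -0.08. The 3 measured genes outside the ATG8 family did not reach 2-fold, and no test of a difference between them and the ATG8 genes was made. ATG8 genes are similar in sequence, and whether their probe sets read more than 1 of them was not examined, so the 8 ratios may share signal. In bulk seedlings fewer cells of a type and less RNA per cell cannot be told apart, here or in any group below.

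Of 36 sugar transport and starch genes 11 were measured, 3 of them (SWEET4, SWEET13 and APL3) at least 2-fold higher in wrky6-1 and none lower by as much, with a median log2 ratio of 0.57. The share over all measured probe sets was 5.16%. All 3 had wild-type signals below 174.6 and were kept only through wrky6-1, so they had to be higher there, and their count only describes them. SWEET proteins let sugars pass out of cells down their gradient. SWEET4 had a signal of 291 in wrky6-1, 246 in 35S:WRKY6-9 and 63.1 in wild type, 4.61-fold higher in wrky6-1, and SWEET13 had 340, 151 and 90.3, 3.77-fold higher. SWEET17, a fructose carrier of the vacuole, had 1437, 1295 and 785 (log2 ratio 0.87). Over the family 7 SWEET genes were measured under that name and 6 had ratios above 0, or all 7 under quantile or equal-median scaling.

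SAG29, another SWEET-family transporter, named for its expression in senescing leaves, had the highest ratio of all genes named by 1 probe set. Its signal was 883 in wrky6-1, 264 in 35S:WRKY6-9 and 64.4 in wild type, 13.7-fold higher in wrky6-1, through which alone it was kept. It was the only measured member of 15 on the senescence list. APL3, a large subunit of ADP-glucose pyrophosphorylase, the enzyme that commits carbon to starch and that is known to respond to sugar, had 383 in wrky6-1, 248 in 35S:WRKY6-9 and 106 in wild type, 3.60-fold higher. The starch breakdown genes DPE1, for a disproportionating enzyme, and PWD, for a glucan-phosphorylating enzyme, had log2 ratios of -0.77 and -0.35, so the starch genes had no common direction. Both lines thus lay above wild type for SAG29, SWEET4, SWEET13 and APL3, against the same wild-type array.

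Auxin, light and clock regulators included some of the lowest ratios. IAA29, a repressor of the Aux/IAA family known to rise in shade and warmth, had the lowest ratio of any gene named by 1 probe set. Its signal was 31.4 in wrky6-1, 54.0 in 35S:WRKY6-9 and 865 in wild type, at least 19.0-fold lower in wrky6-1. WES1, a GH3 enzyme that joins auxin to amino acids, had 797, 441 and 4287 on the same arrays and was 5.38-fold lower. The related GH3.3 and GH3.17 had log2 ratios of -0.39 and -0.14. These 4 were all the measured members of the 40 on the auxin list, with a median log2 ratio of -1.41. Of them 2 were at least 2-fold lower, beside 7.77% of all measured probe sets, and IAA29 was kept only through wild type.

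FHL, which helps carry the far-red receptor phytochrome A into the nucleus, had a signal of 38.5 in wrky6-1, 61.2 in 35S:WRKY6-9 and 323 in wild type, at least 7.11-fold lower in wrky6-1. HAT2, a homeodomain factor induced by shade, had 546, 810 and 907 (log2 ratio -0.73). With HYH they make up the 3 measured genes of 21 on the phytochrome and shade list, whose median log2 ratio was -0.73. The clock list also had 3 measured members, of 29. COR27, a cold- and light-responsive regulator of the clock, had 64.2 in wrky6-1, 294 in 35S:WRKY6-9 and 761 in wild type, 11.9-fold lower, and AT4G33980 had 38.0, 92.9 and 455, a log2 ratio of at most -3.32. GI, the clock and flowering gene GIGANTEA, had 672, 330 and 1297 and a log2 ratio of -0.95. So 2 of the 3 passed 2-fold downwards, beside 7.77% of all measured probe sets. COR27, AT4G33980 and FHL were kept only through wild type and HYH only through wrky6-1, so the directions of these 4 were set when they were kept.

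Stress-responsive genes were split. The list for abscisic acid, dehydration and cold had 5 measured members of 37, with a median log2 ratio of -0.30. Of the 5, 2 were at least 2-fold higher and 1 lower by as much. Over all measured probe sets 5.16% were higher and 7.77% lower by as much. LEA4-5, a late embryogenesis abundant protein thought to protect other proteins in drying cells, had a signal of 586 in wrky6-1, 432 in 35S:WRKY6-9 and 85.9 in wild type, 6.83-fold higher in wrky6-1. COR15A, a cold-induced chloroplast protein, had 2081, 261 and 913 and was 2.28-fold higher. HIS1-3, a linker histone gene induced by drought, had 137 in wrky6-1, 267 in 35S:WRKY6-9 and 1291 in wild type and was 9.44-fold lower. The cold-induced genes COR47 and COR15B had log2 ratios of -0.48 and -0.30, so the classical cold genes had no common direction. LEA4-5 was kept only through wrky6-1 and HIS1-3 only through wild type.

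Rapid stress regulators, whose transcripts respond to touch and wounding within minutes in many settings, had 3 measured members of 23. CML38, a calmodulin-like protein, had 60.9 in wrky6-1, 180 in 35S:WRKY6-9 and 212 in wild type (log2 ratio -1.80), and the zinc-finger repressor STZ had 531, 470 and 1611 (log2 ratio -1.60). PUB19, a U-box ubiquitin ligase, had 423, 1435 and 138 and was 3.06-fold higher in wrky6-1. ORA47, an AP2/ERF activator of jasmonate synthesis, had 117, 89.5 and 490 and was 4.19-fold lower, the only measured gene of 31 on the jasmonate list. CML38 and ORA47 were kept only through wild type and PUB19 only through wrky6-1. ECS1, the only one measured of 24 on the salicylate defence list, had 14374 in wrky6-1, 1959 in 35S:WRKY6-9 and 5517 in wild type, 2.61-fold higher. The heat shock list had 2 measured genes of 24, AT5G51440 with 242 in wrky6-1 against 47.7 in wild type (5.07-fold higher) and AT5G48570 with a log2 ratio of 0.74. Both were kept only through wrky6-1, so their direction was set when they were kept. The log2 ratio of AT5G51440 ran between 1.33 and 3.15 over the settings tried.

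Hsp70-2, a heat-shock chaperone gene chosen after its value was seen, had a signal of 1413 in wrky6-1 against 248 in wild type (log2 ratio 2.51). The 3 measured FES1 genes, which encode Hsp70 partner proteins, differed in direction, with Fes1A at 1.00, Fes1B at -1.07 and Fes1C at -1.68 on the log2 scale. Among 5 measured antioxidant enzymes MSRB6, a methionine sulfoxide reductase, was 2.56-fold higher in wrky6-1, at 1063 against 415 in wild type. Its relatives MSRB5 and MSRB9 had log2 ratios of 0.72 and -0.80, and the median of the 5 was 0.67. The glutathione reductase gene GR1, outside the list and chosen after its value was seen, had a log2 ratio of 1.09.

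Genes of sulphur-containing defence compounds formed a small measured set. Glucosinolates are made from methionine or tryptophan and release mustard oils when tissue is damaged. Of 31 listed genes 3 were measured, 2 at least 2-fold higher in wrky6-1 and none lower, and their median log2 ratio was 1.27. Over all measured probe sets 5.16% were higher and 7.77% lower by as much. BCAT4, the aminotransferase that starts lengthening of methionine, had 2712 in wrky6-1, 1312 in 35S:WRKY6-9 and 1122 in wild type. AT2G31790 had 1614, 746 and 663 and was 2.43-fold higher, and the glucosinolate glucosyltransferase gene UGT74B1 had a log2 ratio of 0.89. GTR1, a glucosinolate transporter chosen after its value was seen, had 1419 in wrky6-1, 913 in 35S:WRKY6-9 and 520 in wild type (log2 ratio 1.45). BGLU28, a β-glucosidase induced by sulphur shortage, had 353, 814 and 65.1 and was 5.41-fold higher in wrky6-1. This gene was kept only through wrky6-1, so its direction was set when it was kept.

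The phosphate list, of interest because of the link between WRKY6 and PHO1, had 2 measured members of 38. AT2G03240 had a signal of 332 in wrky6-1 and 353 in wild type (log2 ratio -0.09), and AT1G35350 had 256 and 293 (log2 ratio -0.19). Neither reached 2-fold. PHO1 was not analysed here, having no named probe set. LPR1, a ferroxidase known for root growth arrest under phosphate shortage and chosen after its value was seen, had 242 in wrky6-1, 49.2 in 35S:WRKY6-9 and 108 in wild type, a log2 ratio of 1.16. LPR1 was kept only through wrky6-1. The iron list had 1 measured gene, PYE, a bHLH factor of the iron deficiency response, with a log2 ratio of 0.35. The bHLH121 gene, whose product also acts in iron homeostasis, was chosen after its value was seen and had 201 in wrky6-1, 462 in 35S:WRKY6-9 and 1196 in wild type (log2 ratio -2.58).

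Besides WRKY6, 4 other WRKY genes were measured. WRKY22, known from defence and from senescence in the dark, had 77.4 in wrky6-1, 408 in 35S:WRKY6-9 and 282 in wild type and was 3.65-fold lower in wrky6-1. WRKY47 had 355 in wrky6-1, 40.7 in 35S:WRKY6-9 and 254 in wild type (log2 ratio 0.48). ZAP1 and WRKY20 had log2 ratios of 0.14 and -0.03. With WRKY6 the list had 2 of 5 at least 2-fold lower, beside 7.77% of all measured probe sets, and none higher. Both WRKY6 and WRKY22 were kept only through wild type, so their direction was set when they were kept. The list median of -0.03 took the other sign, 0.01 to 0.04, under all 3 other scalings of the arrays.

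Cell wall genes were divided in direction. Expansins loosen walls and XTH enzymes cut and rejoin xyloglucan. Of 16 measured members of 43, 3 passed 2-fold upwards, 3 downwards and 10 neither, with a median log2 ratio of -0.16. Over all measured probe sets 5.16% passed upwards and 7.77% downwards. XTH32 had 2221 in wrky6-1, 470 in 35S:WRKY6-9 and 401 in wild type, 5.54-fold higher in wrky6-1, and the expansin genes EXPB3 and EXPA15 had log2 ratios of 1.03 and 1.02. In the other direction were EXLA1, with 207, 1702 and 690 (3.34-fold lower), XTH19, with 654, 1548 and 1876 (2.87-fold lower), and EXPA8, with 659, 2053 and 1690 (2.56-fold lower). TBL26, of a family that adds acetyl groups to wall polysaccharides, had 1246, 131 and 108 and was 11.5-fold higher, while the other 10 measured TBL genes lay between -0.91 and 0.20 on the log2 scale.

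Tubulins and cellulose synthesis had 8 measured genes of 25. Of these TUB1 (623 in wrky6-1 against 1380 in wild type) and TUB6 (2071 against 4150) were at least 2-fold lower. The share over all measured probe sets was 7.77%. The log2 ratio of TUB6 was -1.003 and fell short of 2-fold when the medians of the arrays were set equal. Other β-tubulin genes ranged up to a log2 ratio of 0.02. LIM proteins, which bundle actin filaments, were looked at after their values were seen. All 4 measured ones had ratios below 0, with PLIM2b at -1.62, WLIM1 at -1.15, WLIM2b at -1.05 and WLIM2a at -0.78. The cell division list had 4 measured genes, none of which reached 2-fold, with PRL, a replication licensing factor, at a log2 ratio of 0.98.

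**Figure D3:**
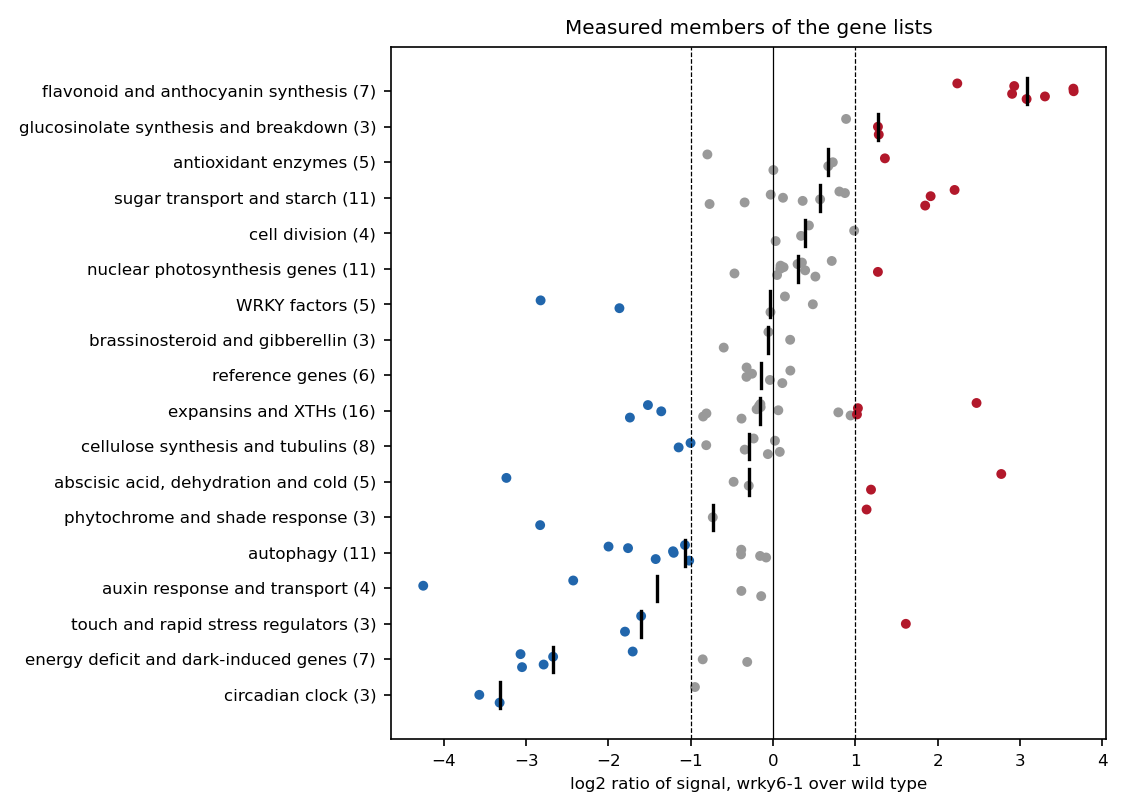
Log2 ratio of signal, wrky6-1 over wild type, for each measured member (point) of the 18 gene lists with at least 3 measured members, with the number measured in brackets, the list median as a black bar and dashed lines at 2-fold. The flavonoid list lies to the right with a median of 3.08, and the circadian clock and energy-deficit lists lie to the left with medians of -3.32 and -2.67.

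Hormone lists other than auxin had few measured genes. The ethylene factor EIN3 had 1781 in wrky6-1, 2297 in 35S:WRKY6-9 and 3450 in wild type, with a log2 ratio of -0.95, and RTE1, a regulator of an ethylene receptor, had -0.57. The gibberellin receptor genes GID1A, GID1B and GID1C had log2 ratios of -0.60, 0.21 and -0.06. The median of those 3, -0.06, turned positive under the 3 other scalings, at 0.004 to 0.02. No cytokinin, nitrogen, boron, aquaporin or wax gene on the lists was measured under a single gene name.

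Genes that mark organs were compared to see whether the seedlings held similar tissue. All 11 nuclear photosynthesis genes with a named probe set were measured. LHCB4.3, an antenna protein of photosystem II, was 2.42-fold higher in wrky6-1, at 1812 against 750 in wild type, and none was 2-fold lower. Over all measured probe sets 5.16% were higher and 7.77% lower by as much, so these counts are not a result about the group. The median log2 ratio of the 11 genes was 0.30, with 10 of 11 above 0. It was 0.13 under quantile and 0.07 under lowess scaling, each with 6 of 11 above 0. The root gene PYK10 had 18203 in wrky6-1 and 14213 in wild type (log2 ratio 0.36), and EXPA18, a root hair expansin, had 0.13. The root hair genes EXPA7 and XTH26 were not measured, the only seed reserve gene with a probe set, ICL, was not measured, and no flower marker had a named probe set. The 6 measured reference genes, used elsewhere to normalise PCR data, had log2 ratios between -0.32 and 0.21. The part of tissue proportions in the results was not tested.

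Genes encoded in the plastid genome had 63 measured members of 69 named. Of these 3 were at least 2-fold higher in wrky6-1, close to the 5.16% of all measured probe sets and so not a result about plastid genes, and none was lower by as much. The median log2 ratio of the 63 was 0.25, and 0.10 under lowess scaling, with 44 of the 63 above 0 here and 34 there. The 3 were atpF, atpH and atpI, subunits of the membrane part of the plastid ATP synthase. The signal of atpH was 9496 in wrky6-1, 8852 in 35S:WRKY6-9 and 3656 in wild type. For atpF it was 10760, 9925 and 5146, and for atpI 488, 467 and 204. Both lines stood above wild type for all 3 genes, and the other plastid genes lay below 2-fold in either direction.

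Families sharing a symbol were scanned for members that differ together. This scan was made after the values were seen and covers 39 families with at least 4 measured members, 13 of which held no gene at 2-fold. Of 24 measured UGT glycosyltransferase genes 4 passed 2-fold upwards and 2 downwards, with a median log2 ratio of 0.18, beside 5.16% and 7.77% over all measured probe sets. The downward count is near that share. The 4 were UGT78D1 and UGT78D2 of the flavonoid list with UGT76E11 (1.46) and UGT84A4 (1.09), and the 2 were UGT72E1 (-1.51) and UGT73B1 (-1.001). All 9 VPS genes, most of them for ESCRT proteins that sort cargo into vacuole-bound vesicles, had ratios below 0, with VPS20.1 at -1.25 and a median of -0.53, although VPS9B at -0.002 turned positive under all 3 other scalings. All 6 TET genes, which encode tetraspanin membrane proteins, also lay below 0, with TET8 at -1.03, short of 2-fold with equal medians, and a median of -0.75. In the VPS and TET families a single member reached 2-fold, beside 7.77% of all measured probe sets at least 2-fold lower. With so few genes neither count is a result about its family. The 7 RPL genes, for plastid ribosomal proteins, lay below 0 too, between -0.58 and -0.07, with none at 2-fold. Of these rpl16 turned positive with equal medians, at 0.003. The ATG family described above was likewise below 0 throughout.

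Of 8 measured genes for RNA polymerase subunits 2 were at least 2-fold higher in wrky6-1, beside 5.16% of all measured probe sets. NRPA1 and NRPA2, the largest subunits of RNA polymerase I, which transcribes ribosomal RNA, both had a log2 ratio of 1.31, with signals of 487 and 1023 in wrky6-1 against 197 and 413 in wild type. Over the 8 genes the median was 0.53, and NRPB6A and NRPB6B lay below 0, at -0.48 and -0.19. YAO, a nucleolar protein of ribosomal RNA processing, had a log2 ratio of 1.21. All of these were picked after their values were seen. The 25S control on the same arrays had 65.2 in wrky6-1 and 310 in wild type. Whether that control follows the ribosomal RNA level of the seedlings was not tested.

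**Figure D4:**
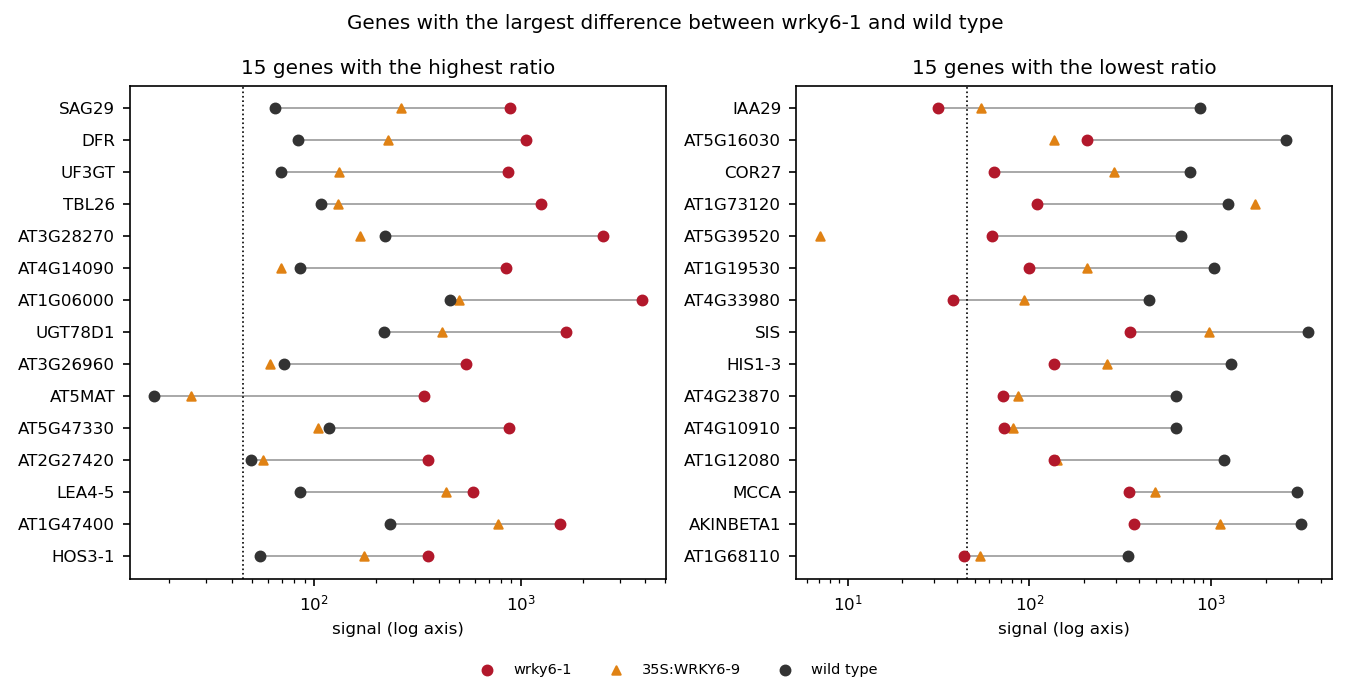
Signals (log axis) of the 15 genes with the highest ratio (left) and the 15 with the lowest ratio (right) of wrky6-1 to wild type, with wrky6-1 in red, 35S:WRKY6-9 as orange triangles, wild type in black and the floor of 45.5 dotted, 1 array each. Wild-type signals on the left lie between 16.9 and 454, and wrky6-1 signals on the right between 31.4 and 378.

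Among the 15 genes with the highest ratios 7 are known here by locus code alone, and among the 15 with the lowest ratios 9 are. The 15 higher genes ran between 6.50-fold and 13.7-fold, and 11 of them had wild-type signals below 174.6. The 15 lower genes ran between 7.71-fold and 19.0-fold, 11 had wrky6-1 signals below 174.6, and 3 of the folds are lower bounds. The 35S:WRKY6-9 signals are given beside these genes and are read against the same wild-type array, so a deviation of that array would move both lines the same way. Where only wrky6-1 departed from wild type, the difference rests on 1 array of that line. None of these differences is thus shown to be particular to wrky6-1.

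AT3G28270 had 2501 in wrky6-1, 166 in 35S:WRKY6-9 and 220 in wild type, 11.4-fold higher in wrky6-1. AT1G52000 had 1519, 164 and 242 and was 6.27-fold higher, and AT5G47330 had 879, 105 and 118, 7.44-fold higher. For these 3, as for AT3G26960 (541 in wrky6-1, 61.5 in 35S:WRKY6-9 and 71.9 in wild type), only wrky6-1 stood above wild type. AT2G27420 had 357, 56.4 and 49.5 on the 3 arrays and was 7.22-fold higher. AT5G62210 had 1080 in wrky6-1, 299 in 35S:WRKY6-9 and 182 in wild type, 5.93-fold higher.

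In other locus-coded genes the overexpressing line also lay above wild type. AT1G47400 had 1546 in wrky6-1, 771 in 35S:WRKY6-9 and 234 in wild type, 6.62-fold higher in wrky6-1, and AT3G56260 had 292, 153 and 48.7, 6.01-fold higher. HOS3-1, which has a symbol, showed the same order, with 355 in wrky6-1, 174 in 35S:WRKY6-9 and 54.7 in wild type.

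AT5G16030 had 209 in wrky6-1, 137 in 35S:WRKY6-9 and 2586 in wild type, 12.4-fold lower in wrky6-1. AT5G39520 had 62.0, 7.08 and 686 on the same arrays, 11.1-fold lower, and AT1G12080 had 136, 142 and 1179, 8.68-fold lower. AT4G23870 and AT4G10910 both had 639 in wild type, with 71.2 and 72.5 in wrky6-1 and 86.2 and 81.2 in 35S:WRKY6-9. In these 5 genes both lines lay far below wild type.

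AT1G73120 departed from them, with 110 in wrky6-1, 1734 in 35S:WRKY6-9 and 1240 in wild type, 11.3-fold lower in wrky6-1 only. AT1G19530 had 99.1, 207 and 1041 and was 10.5-fold lower, and AT1G72060 had 139, 281 and 1072, 7.69-fold lower. AT1G68110 had 43.6 in wrky6-1, 53.3 in 35S:WRKY6-9 and 351 in wild type, at least 7.71-fold lower. SIS, named as a salt-induced serine-rich protein, had 358, 978 and 3395 and was 9.48-fold lower.

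Neighbouring genes were compared along the chromosomes. Of 1655 pairs of adjacent genes both measured, 397 held at least 1 gene at 2-fold, 22 held genes at 2-fold in the same direction and 15 in opposite directions. Of the 22, 19 were lower together and 3 higher together. Over all measured named genes 4.56% were higher and 8.09% lower. Whether the pairs exceed what these shares give was not tested. The pair AT3G57010 and AT3G57020 was higher in wrky6-1, with log2 ratios of 1.11 and 1.64. The run AT4G15680, AT4G15690 and AT4G15700 was lower, with -1.17, -1.38 and -1.39. AT4G10910 lies beside KELP, a transcriptional coactivator, at -1.04, and ATG8B lies beside AT4G04630 at -2.22. These pairs were named after their values were seen, and adjacent genes that share sequence may share probe signal.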

How the data were processed

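Biotin-labelled cRNA from whole seedlings was hybridised to Affymetrix arrays, 1 per genotype, from 8 µg of total RNA per the labels' protocols. The deposited values were 1 signal intensity per probe set. GCOS 1.0 and MAS5 were used per the submitters' processing notes, which do not give their roles. The 2% trimmed mean was close to 500 on each array (500.1 in wrky6-1, 499.8 in 35S:WRKY6-9 and 500.0 in wild type), so no further scaling was applied. The 64 Affymetrix controls were left out. The floor and the level for measurement are the 30th and 50th percentiles of Arabidopsis signals over the 3 arrays. With 1 array per genotype nothing was tested, and the number of arrays limits the precision. The ratio script was checked on simulated data.

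Genes came from the platform annotation, updated through the TAIR10.1 gene table (13484 of 13513 single-gene probe sets matched). A genome build is not given in the sources used here, so no coordinates are printed. No sequence was used.

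The comparison, the 35 gene lists and the alternatives were chosen with earlier results of these data known. Named were WRKY6, the 15 highest and 15 lowest ratios among single-gene probe sets, the 10 highest and 10 lowest among genes with a locus code only, and, per list, up to 4 measured members, by size of log2 ratio. Other list members named complete their lists, and other genes outside the rule were named after their values were seen. A planned grouping by product description was not made, because the gene table used carries no descriptions. Python 3.11.15, pandas 2.3.3, numpy 2.4.6 and scipy 1.17.1 were used.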

Additional observations from a re-analysis of the deposited data

How the results depend on the processing

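Quantile, equal-median and lowess scaling, floors at 19.7 and 96.4, and other filters on low signals were tried, and the family medians under the 3 scalings were added after seeing the data. Probe sets at least 2-fold higher numbered 426 to 762 over these settings and those lower 638 to 1132, each within 1.5 times its reported count. Higher probe sets were 39.9% of those past 2-fold, and 48.7% (759 higher and 798 lower) with equal medians, 46.3% with lowess and 44.5% with quantile scaling. Of 618 values for 103 named genes 41 moved, and of 154 list medians 9 did. Those moves were larger than the spread between probe sets of a gene, and none changed the sign of a called value. Among 67 named genes past 2-fold, HCT fell below it under quantile and lowess scaling and TUB6 with equal medians. The clock median ran between -3.57 with the lower floor and -2.24 with the higher, the touch median was -1.08 under lowess scaling and -0.80 with no filter, and the auxin median was 0.00 with no filter. Ratios involving a signal under the floor follow the floor by construction, and WRKY6 ran between -4.03 and -1.74. No paired analysis was possible because each genotype has 1 array, and for the same reason no array could be left out. Low signals limit the 35.2% of higher and 37.5% of lower probe sets with 1 signal below the level for measurement.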

Other observations

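Some of the largest differences were on probe sets that the annotation used does not put to a single gene. Of the 18 probe sets at least 8-fold higher in wrky6-1, 9 were not listed and 2 named several genes, and of the 25 at least 8-fold lower, 11 were not listed. Probe set 264400_at had a signal of 2249 in wrky6-1, 476 in 35S:WRKY6-9 and 55.9 in wild type, a log2 ratio of 5.33. Probe set 264524_at had 74.1, 36.8 and 3080 on the same arrays (log2 ratio -5.38), and 245325_at had 145, 457 and 5306 (log2 ratio -5.20). Probe set 267461_at had 1352 in wrky6-1, 4069 in 35S:WRKY6-9 and 19629 in wild type, a log2 ratio of -3.86. These 4 differences, chosen for their size after the values were seen, are as large as or larger than most of the named ones, so the functions described above cover part of the comparison.

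Other genes with symbols outside the lists were also past 2-fold, and were picked after their values were seen. CCL had a signal of 4871 in wrky6-1, 10190 in 35S:WRKY6-9 and 19275 in wild type, a log2 ratio of -1.98. EXO, an extracellular protein of brassinosteroid-promoted growth, had a log2 ratio of -1.82, and ATL8, a RING-type ubiquitin ligase gene, had -1.92. Genes of nitrogen and sulphur recycling on the lower side were AAH, the allantoate amidohydrolase of purine breakdown, at -1.84, and MGL, the methionine lyase gene, at -1.26. The trihelix factors GT-1 and GT2, which bind light-responsive promoters, had -1.54 and -1.49. On the higher side were AFR, an F-box protein of phytochrome A signalling, at 1.51, and Cpn60beta2, a plastid chaperonin, at 1.44.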
